A study of Mus musculus with 20 samples.

Results

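Genes of myelin and of the oligodendrocyte lineage, Mbp, Mog, Mag, Cnp, Mobp, Olig1, Olig2, Sox10 and Gpr17, were followed across every cell cluster and library of a single-cell RNA-seq series of mouse spinal cord. They were picked by symbol, and all 9 were found among the 16003 genes of the count table. Their UMIs (unique molecular identifiers, 1 per captured RNA molecule) were summed per cluster and library and expressed as CPM, counts per 1000000 UMIs of the same cluster and library.

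The cells came from the cords of female C57BL/6J mice, 8-10 weeks old, that received a contusion at T9 or a sham operation (laminectomy without contusion). The mice ate either vehicle chow or chow with 1200 ppm PLX5622, an antagonist of the CSF1 receptor that depletes microglia, from 2 weeks before surgery to the end of the experiment. There were 6 libraries, each 1 pool of several mice: sham, 7 days post-injury (dpi) and 28 dpi, each with vehicle and with PLX5622. The labels give the sham pools 7 or 28 days with no single day. With 1 library per condition there was no replicate, so no test between conditions was possible, and all ranges given are exact 95% intervals that cover counting error only. The cord segment was not perfused, and myelin debris and dead cells were removed with beads before capture, which limits how much myelin and how many oligodendrocytes could be seen.

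The table held 21016 cells in 14 clusters, with 1795, 7439 and 9846 cells in the sham, 7 dpi and 28 dpi vehicle libraries and 492, 504 and 940 in the PLX5622 libraries. Total UMIs per library ran from 2606149 (sham PLX5622) to 35694246 (7 dpi vehicle). The authors' cluster numbers were used, and a cluster name here means cells like that type by a list of markers. Microglia (7018 cells) and monocyte-derived macrophages (MDMs, 6791 cells) were the largest clusters. The oligodendrocyte lineage cluster held 255 cells, 1.21% of all, and Olig1 itself was 1 of its 6 markers. Cluster 12 (168 cells), which was led by Pi16, Lum and Dcn, is given by its number.

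Oligodendrocytes wrap axons in myelin, a stack of membrane that is rich in lipid and holds few major proteins. Mbp (myelin basic protein) compacts the membrane from the cytoplasmic side, Cnp keeps cytoplasmic channels through it open, Mag sits on the membrane that faces the axon, Mog lies on the outermost surface, and Mobp is a small basic protein of compact myelin. Olig1, Olig2 and Sox10 are transcription factors of the lineage: Olig2 specifies the precursors, and Sox10 drives myelin genes. Gpr17 is a receptor of precursors that have begun to differentiate and is shut off in mature cells. Olig2 also acts in part of the astrocyte lineage. The Mbp gene also gives golli transcripts, which are made in immune cells, and counts per gene add all transcripts of a gene together.

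On GRCm38 with the GENCODE vM21 annotation, Mog lies at chr17:37010743-37023398 on the minus strand, Mag at chr7:30899176-30914873 on the minus strand, Cnp at chr11:100574904-100591729 and Mobp at chr9:120149707-120181484, both on the plus strand. Olig1 (chr16:91269772-91271933) and Olig2 (chr16:91225457-91228677) are neighbours on the plus strand with 41095 bases between them, and Sox10 lies at chr15:79154908-79165240 on the minus strand. Cnp overlaps the protein-coding gene Dnajc7 and Gpr17 the protein-coding gene Lims2, in both cases on the opposite strand. Mobp overlaps Gm38642, a processed transcript, on the same strand. Mbp, Mog and Olig1 overlap Rpl21-ps8, Gm22388 and Gm15966, each on the opposite strand.

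RefSeq promoter windows (GRCm38.p6, 250 bases before to 50 after a start) were at hand for 5 of the 9 genes. The stretches upstream of the annotated gene are shown for 1 lineage factor and 3 structural genes, since these 4 span the range of levels described next, from Olig2, among the highest, to Mog, almost uncounted. Capitals mark ACAAAG, a core of SOX family binding sites, read on either strand (CTTTGT on the other), and CANNTG, the E-box bound by OLIG and other basic helix-loop-helix factors. A match to letters is not a binding site.
Olig2 (chr16:91225300-91225456, plus strand): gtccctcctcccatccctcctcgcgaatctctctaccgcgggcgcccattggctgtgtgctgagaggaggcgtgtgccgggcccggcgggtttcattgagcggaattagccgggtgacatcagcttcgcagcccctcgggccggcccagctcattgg
Cnp (chr11:100574689-100574903, plus strand): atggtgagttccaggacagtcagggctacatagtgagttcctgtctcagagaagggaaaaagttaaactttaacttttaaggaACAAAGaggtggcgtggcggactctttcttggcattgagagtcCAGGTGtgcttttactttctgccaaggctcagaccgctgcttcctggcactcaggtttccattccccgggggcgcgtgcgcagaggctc
Mobp (chr9:120149492-120149706, plus strand): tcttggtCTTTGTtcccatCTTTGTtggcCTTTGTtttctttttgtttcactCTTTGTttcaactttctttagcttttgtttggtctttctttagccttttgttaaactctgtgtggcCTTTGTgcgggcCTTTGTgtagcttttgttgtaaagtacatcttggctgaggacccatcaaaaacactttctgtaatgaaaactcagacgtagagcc
Mog (chr17:37023399-37023648, minus strand): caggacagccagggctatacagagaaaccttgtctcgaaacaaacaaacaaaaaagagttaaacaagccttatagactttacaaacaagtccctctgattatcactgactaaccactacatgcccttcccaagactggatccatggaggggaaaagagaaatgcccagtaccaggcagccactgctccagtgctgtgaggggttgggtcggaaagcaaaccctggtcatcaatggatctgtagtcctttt
The Mobp stretch held 6 matches to ACAAAG, a hexamer found in 18.7% of all 32851 promoter windows. Cnp held 1 such match and 1 E-box, whose letters were in 72.3% of windows. The Olig2 window was GC-rich, with 65% GC and an observed over expected CpG ratio of 0.815, against medians of 52.7% and 0.384 over all windows. The Mog window had a CpG ratio of 0.171, with 3 CpG in its 300 bases, and none of the searched letters. A further SOX core, ACAATG, was in 12.6% of windows. Among these 4 it was only in the Olig2 window, on the other strand, at position -68 from the RefSeq start and inside the GENCODE gene.

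Across the series the 9 genes fell into groups with different patterns, given as a description, since the clusters were made from all genes of the same cells. The transcription factors and Gpr17 were concentrated in the oligodendrocyte lineage cluster, with Olig1 and Olig2 second in astrocytes. Cnp was highest in the lineage cluster but was also counted in B cells, ependymal cells and astrocytes. Mbp was spread over immune clusters, several of them at levels close to that of the lineage cluster itself, Mag was close to it in microglia, and Mog and Mobp were almost uncounted.

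**Figure D1:**
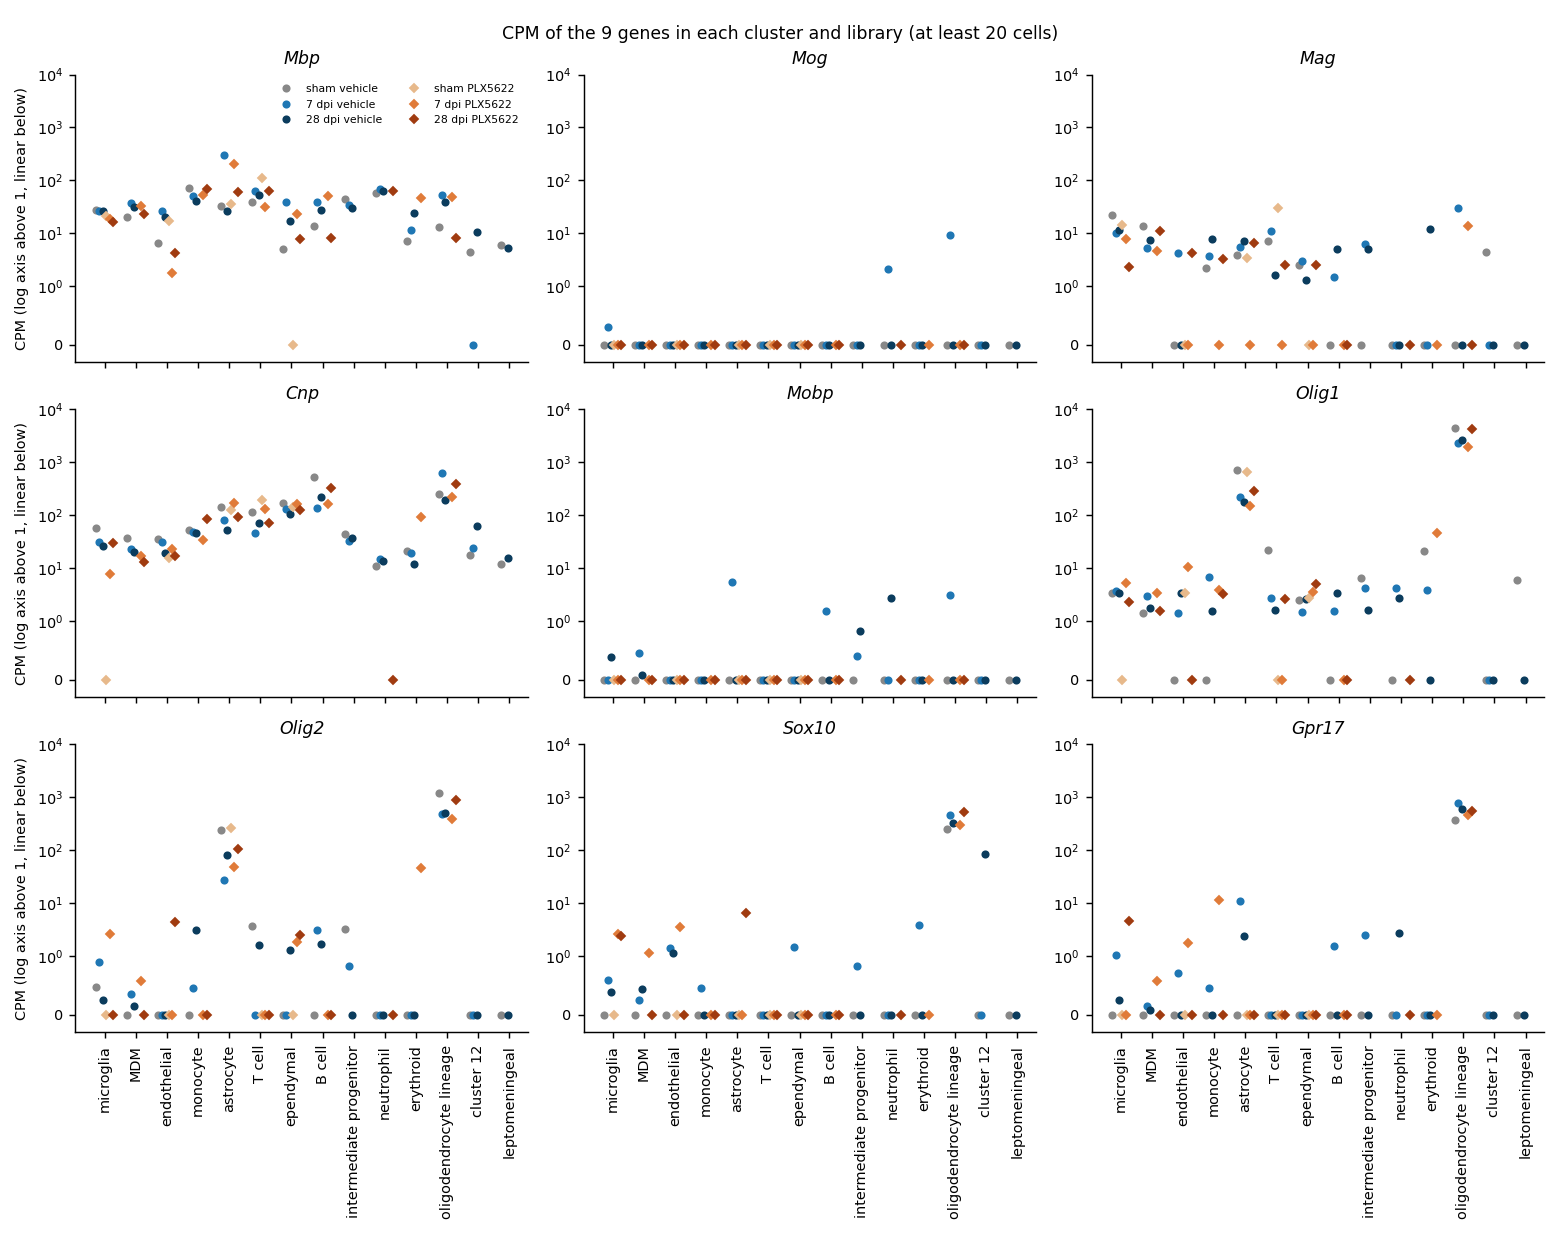
CPM of each of the 9 genes (vertical axis, logarithmic above 1 and linear below) in each cluster (horizontal axis), with 1 point per library and only combinations of at least 20 cells. Olig1, Olig2, Sox10 and Gpr17 peak in the oligodendrocyte lineage cluster, while the Mbp points of most clusters lie near each other.

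Mbp gave 2672 UMIs in all. Pooled over libraries, its level was 65.2 CPM (51.9–80.8) in neutrophils, 64.0 (53.9–75.4) in astrocytes, 56.9 in T cells, 54.5 in monocytes and 50.3 (35.9–68.5) in the oligodendrocyte lineage cluster. The intervals of neighbours in this order overlapped, so these 5 clusters could not be ranked. MDMs followed at 33.5 CPM (31.7–35.4), just under the interval of the lineage cluster. Of the 40 Mbp UMIs of the lineage cluster, 8 were in 1 of the 4 lineage cells of the sham PLX5622 library. This narrow step thus rests in part on 1 cell. Microglia and MDMs together held 65.3% of the Mbp UMIs, and they held 68.9% of all UMIs of the table.

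Mbp was thinly spread over cells. Of 2188 cells with any Mbp UMI, 1856 (84.8%) had exactly 1. Only 14 cells had 5 or more, and they held 123 UMIs, 4.60% of the total. Astrocytes were 6 of these 14 cells and endothelial cells 2, while the microglia, T cell, B cell and neutrophil clusters had none. One such cell in cluster 12, in the 28 dpi PLX5622 library, carried 8 Mbp UMIs with 10 Cnp UMIs.

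Mag gave 548 UMIs. Its level was 15.1 CPM (7.80–26.4) in the oligodendrocyte lineage cluster, from 12 UMIs, and 11.8 CPM (10.3–13.6) in microglia, from 210 UMIs, so the 2 clusters did not differ beyond counting error. MDMs had 6.46 CPM from 247 UMIs, T cells 5.90 and the intermediate progenitor cluster 5.37. Of the 12 Mag UMIs of the lineage cluster, 10 lay in the 7 dpi vehicle library, in 5 cells. By number of molecules, Mag was thus mainly counted in macrophage clusters, and these cells were also the majority of the table.

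Mog gave 6 UMIs and Mobp 19 in the whole table. The Mog UMIs were 3 in the lineage cluster, 2 in microglia and 1 in neutrophils, and MDMs held 10 of the 19 Mobp UMIs. Neither gene allows a comparison at this depth. The authors' filter on genes seen in few cells set them to 0 in some libraries of the table, which removed 1 or 2 UMIs of the gene each time.

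Cnp, with 3445 UMIs, was led by the oligodendrocyte lineage cluster at 414 CPM (370–461). B cells came next at 211 CPM (190–235), followed by ependymal cells at 136, astrocytes at 115, T cells at 82.6 and monocytes at 50.2. The step from the lineage cluster to B cells was larger than the counting error, and Cnp was the only structural member for which the lineage cluster stood clear of all others. In B cells its level was 519 CPM (367–712) in sham, 138 (111–169) at 7 dpi and 218 (182–259) at 28 dpi with vehicle, and 166 (101–256) and 324 (231–441) at 7 and 28 dpi with PLX5622. Sham was the highest of the vehicle libraries for Cnp in these cells. The sham B cells numbered 23 and 6 of their 38 Cnp UMIs were in 1 cell.

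Olig1, with 3612 UMIs, was at 2853 CPM (2737–2973) in the oligodendrocyte lineage cluster and 499 CPM (470–529) in astrocytes, and the next cluster, erythroid cells, had 14.8 CPM from 8 UMIs. Olig2 followed the same order, with 596 CPM (544–652), 181 CPM (164–200) and then 5.37 CPM in cluster 12 from 3 UMIs. Sox10 and Gpr17, in contrast, had hardly any UMIs in astrocytes. Sox10 was at 396 CPM (354–442) in the lineage cluster and 26.9 CPM (15.0–44.3) in cluster 12, and Gpr17 at 615 CPM (562–672) in the lineage cluster and 3.58 CPM, from 2 UMIs, in cluster 12. The 15 Sox10 UMIs of cluster 12 were all from 28 dpi, 8 with vehicle in 3 cells and 7 with PLX5622 in 2 cells. Sox10 also marks Schwann cells. Of a list of 7 Schwann cell genes, 6 were in the table, 2 of them with fewer than 20 UMIs. Leading clusters were tallied only for the lineage, astrocyte, microglia and MDM clusters, which led 1, 1, 1 and 0 of these genes. Cluster 12 was not part of this tally. Whether cluster 12 held Schwann cells was not tested.

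Cells of the lineage cluster carried the factors together. Of its 232 cells with an Olig1 UMI, 67.7% also had Olig2, 59.5% Sox10 and 76.7% Pdgfra, the growth factor receptor of oligodendrocyte precursors. Of 396 astrocytes with Olig1, 39.4% had Olig2 and 90.7% had the astrocyte water channel Aqp4, while 1.52% had Pdgfra and none had Sox10. Astrocytes with Olig1 thus often had Aqp4, seldom Pdgfra and never Sox10. Aqp4 was also found in 447 of 578 astrocytes without Olig1. Other precursor genes were counted in the astrocyte cluster. A list of 17 of them, described below, summed to 3332 CPM in sham vehicle astrocytes and 13919 in sham vehicle lineage cells.

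Most cells of the lineage cluster were on the precursor side. A cell was put on the mature side where its UMIs of 9 mature myelin genes outnumbered those of 8 precursor genes, with no member in either list. By this cut 229 of 255 cells (89.8%) were precursor-like, 14 (5.49%, 3.03–9.04) were mature-like and 12 were neither, and 19 cells lay within 1 UMI of it. The mature side held 321 CPM of Mbp (183–521) against 32.2 (20.4–48.3) on the precursor side, 160 against 5.60 of Mag, 1503 against 351 of Cnp and all 3 Mog UMIs of the cluster. Olig1 (681 against 3114 CPM) and Olig2 (281 against 644) were lower on the mature side, and Sox10 was at 260 against 423. Gpr17, which is shut off in mature cells, was higher on the mature side, at 1543 against 577 CPM. Mature-like is therefore a name for the side of the cut only. It does not mean that these cells were mature oligodendrocytes. Ugt8a, 1 of the 9 mature genes of the cut, was also among the genes most like Gpr17 across clusters and libraries (r 0.99), so the cut was not independent of Gpr17.

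**Figure D2:**
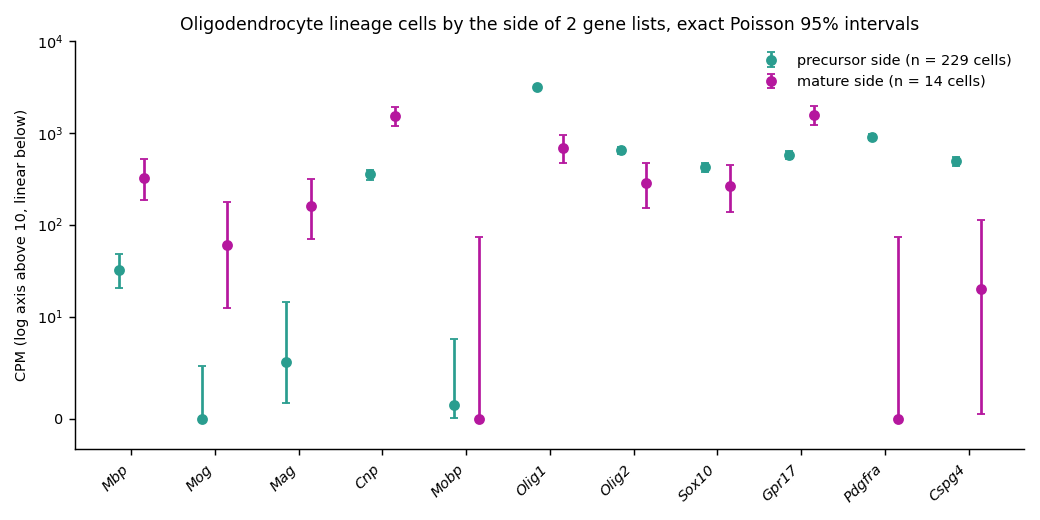
CPM (logarithmic above 10, linear below) of the 9 genes and of Pdgfra and Cspg4 in the 229 precursor-like and 14 mature-like cells of the oligodendrocyte lineage cluster, with exact Poisson 95% intervals. Mbp, Mag and Cnp lie higher, and Olig1 and Olig2 lower, in the mature-like cells.

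Most mature-like cells were in 1 library. The 7 dpi vehicle library held 10 of them (9.35% of its 107 lineage cells, 4.57–16.5), and the other libraries 1 or none, with none among 39 cells at 28 dpi with PLX5622. Those 10 cells carried 74 of the Cnp UMIs, 76 of the Gpr17 UMIs and 8 of the 10 Mag UMIs of that library's lineage cluster. Results for Cnp, Gpr17 and Mag at 7 dpi with vehicle rest in part on these cells and are given without them where they change.

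The first comparison across conditions asks how levels in the lineage cluster differed after injury, in the vehicle libraries. This cluster was 1.23% of cells (0.770–1.85) in sham, 1.44% (1.18–1.74) at 7 dpi and 0.559% (0.421–0.726) at 28 dpi. It held 22, 107 and 55 cells. The counting intervals of sham and 7 dpi overlapped, and the 28 dpi share was lower than both. Among cells other than microglia and MDMs, the numbers of which also differed between libraries, the shares were 2.35% (1.48–3.54), 4.73% (3.89–5.69) and 2.15% (1.62–2.79), so that 7 dpi was highest and sham and 28 dpi overlapped.

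Olig1 was at 4435 CPM (3980–4927) in sham, 2349 (2186–2521) at 7 dpi and 2655 (2353–2985) at 28 dpi. Its log2 ratio over sham was -0.92 (-1.10 to -0.73) for 7 dpi and -0.74 (-0.97 to -0.51) for 28 dpi. Olig2 was at 1218 CPM (985–1488), 473 (401–554) and 514 (386–670.5), with log2 ratios of -1.36 (-1.74 to -0.98) and -1.24 (-1.75 to -0.75). Both were highest in sham, with no overlap of the intervals. When every cell was given the same weight the 7 dpi ratios shrank to -0.23 for Olig1 and -0.66 for Olig2, and 1 of the 22 sham cells held 57 of the 346 Olig1 UMIs. A list of 12 transcripts typical of other cells moved along with these genes in the lineage cluster, at 4486 CPM in sham, 1211 at 7 dpi and 2065 at 28 dpi. Of these 12, 1 (Snap25) was itself highest in the lineage cluster. The part of the list in the result was not tested.

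Cnp, Gpr17 and Sox10, 3 of the other members differed in the opposite direction at 7 dpi. Cnp was at 256 CPM in sham, 628 at 7 dpi and 190 at 28 dpi (log2 ratio 1.29 at 7 dpi over sham, 0.63–2.03). Gpr17 was at 372, 793 and 600 CPM (1.09, 0.54–1.70) and Sox10 at 256, 464 and 324 CPM (0.86, 0.18–1.61). All 3 were highest at 7 dpi. On the precursor side alone, Cnp was at 278 CPM in sham, 450 (376–534) at 7 dpi and 214 at 28 dpi, and Gpr17 at 403, 627 and 676. Mbp in the lineage cluster rested on 1, 17 and 4 UMIs and Mag on 0, 10 and 0, too few for a ratio.

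Set against all genes of the cluster, the shifts were moderate. Of 619 genes with at least 100 UMIs in sham and 7 dpi together, 25.4% were at least 2-fold higher at 7 dpi, Cnp and Gpr17 among them, and 6.3% at least 2-fold lower, Olig2 among them, so 3 of the 5 members with enough UMIs passed 2-fold. The median gene moved by 0.32 on the log2 scale, and by 0.36 from sham to 28 dpi and -0.17 from 7 to 28 dpi. From sham to 28 dpi, 4.52% of 199 genes were at least 2-fold lower, and 1 of 2 members (Olig2) was. From 7 to 28 dpi, 4.11% of 657 genes were at least 2-fold lower, and of 5 members Cnp was, with a log2 ratio of -1.72 (-2.46 to -1.06).

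With PLX5622 the lineage cells were a larger share of both injured libraries. They were 5.56% (3.72–7.93) of the 7 dpi and 4.15% (2.97–5.63) of the 28 dpi PLX5622 library, from 28 and 39 cells, and the sham PLX5622 library had only 4. Microglia and MDMs were 5177 of the 7439 cells at 7 dpi with vehicle and 161 of 504 with PLX5622. Among the remaining cells the lineage share was 4.73% (3.89–5.69) with vehicle and 8.16% (5.49–11.6) with PLX5622 at 7 dpi, and 2.15% (1.62–2.79) and 5.97% (4.28–8.07) at 28 dpi. Between treatments, Cnp, Sox10 and Olig1 differed in opposite directions at 7 and 28 dpi.

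At 7 dpi Cnp was at 628 CPM with vehicle and 225 with PLX5622, a log2 ratio of -1.48 (-2.06 to -0.95). Gpr17 was at 793 and 470 (-0.76, -1.16 to -0.37), Sox10 at 464 and 299 (-0.63, -1.15 to -0.14) and Olig1 at 2349 and 1926 CPM (-0.29, -0.49 to -0.09). All of these were lower with PLX5622. Of the 69 Gpr17 UMIs with PLX5622, 39 were in 1 cell, and without the cell with most Gpr17 UMIs in each library its levels were 754 and 244 CPM and its ratio -1.63. With all cells, Cnp was the only 1 of 5 members past 2-fold, where 5.19% of 771 genes were at least 2-fold lower and the median gene moved by 0.12. On the precursor side alone Cnp was at 450 CPM with vehicle and 217 with PLX5622, which is still lower, and with every cell weighted alike its ratio was -0.94. The 12 transcripts of other cells summed to 1770 CPM (1561–1998) with PLX5622 and 1211 (1095–1336) with vehicle, and the astrocyte filament gene Gfap was found in 34.8% and 6.80% of the lineage cells with Olig1. Their part in the 7 dpi differences was not tested.

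At 28 dpi Olig1 was at 2655 CPM with vehicle and 4361 (3998–4748) with PLX5622, a log2 ratio of 0.72 (0.50–0.93). Olig2 was at 514 and 887 CPM (0.79, 0.30–1.29), Sox10 at 324 and 534 (0.72, 0.10–1.37) and Cnp at 190 and 394 (1.05, 0.27–1.88). These 4 were higher with PLX5622, while Gpr17 was at 600 and 558 CPM (-0.10, -0.62 to 0.42). This value for Gpr17 depended on 1 cell, which held 22 of its 63 UMIs with vehicle, and without the cell with most Gpr17 UMIs in each library the levels were 407 and 532 CPM and the ratio 0.39. None of the 3 members with at least 100 UMIs was 2-fold higher, against 2.58% of 271 genes (median gene -0.16), and Cnp, past 2-fold, rested on 68 UMIs in both libraries together. The 12 transcripts of other cells summed to 2932 CPM in the PLX5622 cells and 2065 in the vehicle cells, and their part was not tested.

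**Figure D3:**
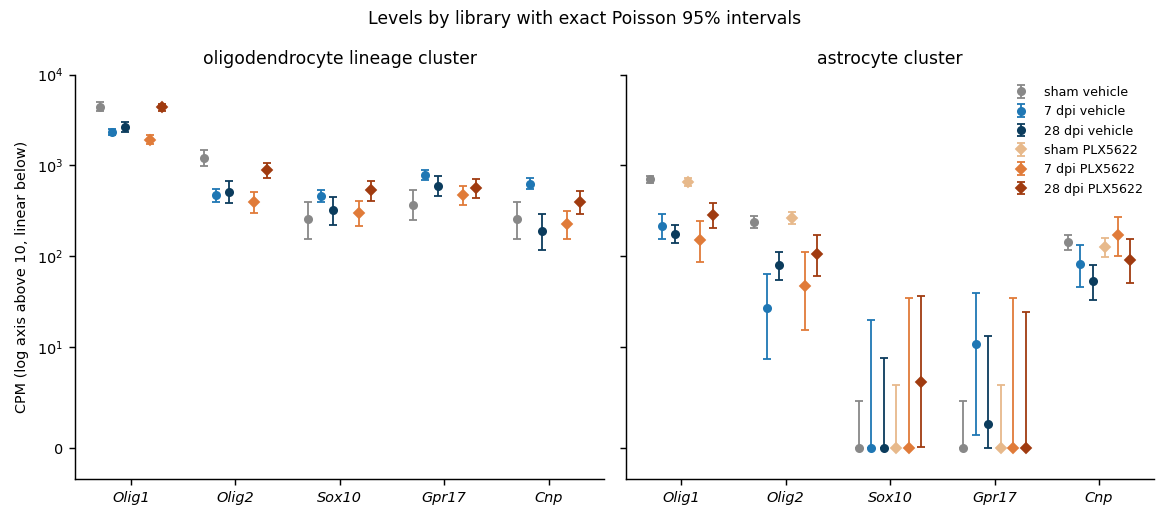
CPM (logarithmic above 10, linear below) of Olig1, Olig2, Sox10, Gpr17 and Cnp by library in the oligodendrocyte lineage cluster and the astrocyte cluster, with exact Poisson 95% intervals and only combinations of at least 20 cells. In astrocytes Olig1 and Olig2 are highest in both sham libraries and Sox10 is at or near 0.

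In astrocytes Olig1 was at 703 CPM (645–764) in sham, 218 (155–296) at 7 dpi and 179 (140–224) at 28 dpi with vehicle, and at 659, 152 and 284 CPM with PLX5622. Olig2 was at 241, 27.2 and 79.7 CPM with vehicle and 265, 47.6 and 106 with PLX5622, the 7 dpi vehicle value resting on 5 UMIs. Sham was highest in both chow groups for both genes, and no injured library overlapped it. In the vehicle libraries the log2 ratio over sham was -1.69 (-2.19 to -1.23) for Olig1 and -3.15 (-4.79 to -1.90) for Olig2 at 7 dpi, and -1.98 and -1.60 at 28 dpi.

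Astrocytes were few at 7 dpi, with 69 vehicle and 39 PLX5622 cells against 310 and 204 in sham. In cells thinned to 1000 UMIs, an Olig1 UMI was found in 42.2% of sham, 11.8% of 7 dpi and 17.0% of 28 dpi vehicle astrocytes, with median depths before thinning of 2024, 2057 and 1149 UMIs (56.5%, 27.5% and 22.9% unthinned). Among MDMs of all libraries thinned the same way the share was 0.284%. Lower levels were common among astrocyte genes: 31.4% of 1496 genes were at least 2-fold lower at 7 dpi, and 2 of 3 members (Olig1 and Olig2), and the median gene moved by -0.44. At 28 dpi 17.9% of 1891 genes were at least 2-fold lower, and all 3 members were, with Cnp at -1.43 and the median gene at -0.35.

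Mbp in astrocytes went the other way. It was at 32.1 CPM in sham, 299 at 7 dpi and 26.6 at 28 dpi with vehicle, and 35.8, 200 and 59.4 with PLX5622, so both 7 dpi libraries were high. The vehicle ratio at 7 dpi over sham was 3.22 (2.52–3.97), from 80 UMIs in both libraries together, and 4 cells with 5 or more Mbp UMIs held 27 of the 55 at 7 dpi. With PLX5622 at 7 dpi 1 cell held 10 of the 21 Mbp UMIs, and without it the level was 135 CPM (67.4–241.5). Without cells of 5 or more Mbp UMIs the ratio was 3.14. Olig1, Olig2 and Cnp of the 7 dpi vehicle astrocytes were lower than in sham, so Mbp stood apart from these members in astrocytes. Of 1496 astrocyte genes with at least 100 UMIs, 15.8% were at least 2-fold higher at 7 dpi, and Mbp had too few UMIs to be among them. The 7 dpi vehicle library was also highest for Mbp in MDMs, neutrophils, endothelial cells (26.1 CPM), ependymal cells (39.3) and the lineage cluster. In each of the remaining clusters another library was highest.

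The macrophage clusters are where most myelin gene molecules were counted, and the question put to them was whether these molecules exceed those in cells that have no part in myelin. In microglia Mbp was at 27.2 CPM (20.6–35.2) in sham, 26.2 (22.5–30.4) at 7 dpi and 26.6 (23.1–30.5) at 28 dpi with vehicle, and 21.2, 18.3 and 16.3 with PLX5622. In MDMs it was at 20.4 CPM (13.7–29.4), 36.7 (34.1–39.5) and 31.3 (28.4–34.4) with vehicle, and 32.6 and 23.3 at 7 and 28 dpi with PLX5622. The microglia values overlapped throughout the vehicle libraries, and in MDMs the sham value was lowest.

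Endothelial cells, T cells and B cells of the same library served as reference. In the sham, 7 dpi and 28 dpi vehicle libraries the log2 ratio of Mbp in MDMs over them was -0.05 (-1.02 to 0.98), 0.07 (-0.26 to 0.41) and -0.03 (-0.40 to 0.37). In microglia it was 0.36 (-0.50 to 1.32), -0.42 (-0.80 to -0.03) and -0.26 (-0.66 to 0.16). Mbp was therefore not detectably higher in either macrophage cluster than in the reference cells of the same vehicle library. Other myeloid cells stood higher: over the same reference Mbp in neutrophils was at 1.44 (0.31–2.58), 0.95 (0.31–1.55) and 0.99 (0.24–1.69), and in monocytes at 1.77 (0.83–2.79), 0.51 (0.09–0.94) and 0.35 (-0.36 to 1.03). The choice of reference mattered: against endothelial cells alone the MDM ratio was 1.66 in sham, 0.49 at 7 dpi and 0.63 at 28 dpi, and in thinned cells it was 1.19, -0.60 and -0.55 against all 3 clusters.

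After thinning to 1000 UMIs in the 7 dpi vehicle library, an Mbp UMI was found in 3.32% of MDMs, 2.17% of microglia, 9.92% of T cells, 4.11% of B cells and 1.00% of endothelial cells. The median depths were 5777, 2902.5, 1510, 2209 and 2409 UMIs, and without thinning the MDM share was 19.7%. The macrophage shares lay above the endothelial share and below those of T cells and B cells. Whether they reflect expression of Mbp in these cells was not tested. With PLX5622 at 7 dpi the MDM ratio over the reference was 1.35 (0.37–2.49), but the reference held 10 Mbp UMIs, and against T and B cells alone the ratio was -0.34.

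**Figure D4:**
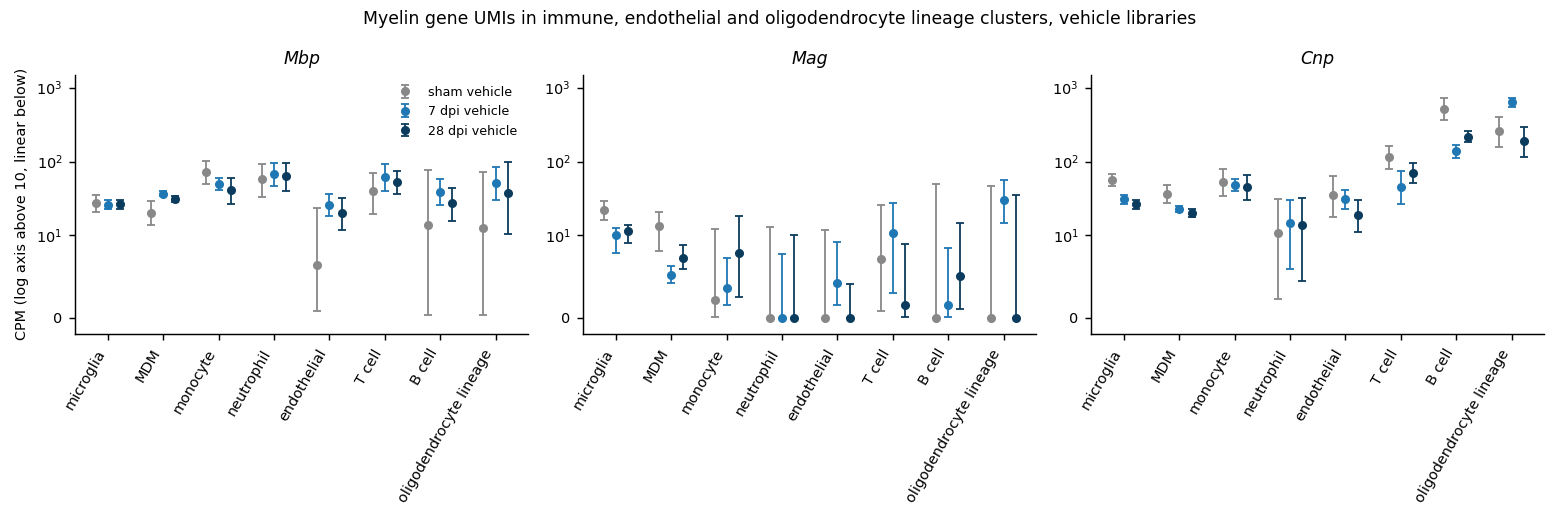
CPM (logarithmic above 10, linear below) of Mbp, Mag and Cnp in immune, endothelial and oligodendrocyte lineage clusters of the 3 vehicle libraries, with exact Poisson 95% intervals. Mbp in microglia and MDMs lies below monocytes, neutrophils and T cells in each library, while Mag in microglia lies above endothelial cells, B cells and neutrophils.

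Mag differed from Mbp. In microglia it was at 21.9 CPM (16.1–29.3) in sham, 10.1 (7.82–12.8) at 7 dpi and 11.4 (9.13–13.9) at 28 dpi with vehicle, and in MDMs at 13.4, 5.18 and 7.28. The log2 ratio of microglia over the reference was 2.86 (0.92–5.95), 1.17 (0.24–2.23) and 2.58 (1.17–4.48), above 0 in all 3 vehicle libraries, although the sham reference held only 2 Mag UMIs and T cells alone were at 10.8 CPM at 7 dpi, from 4 UMIs. For MDMs it was 2.14 (0.09–5.29), 0.21 (-0.69 to 1.25) and 1.94 (0.53–3.84). Cnp was the reverse, lower in macrophages than in the reference, with -1.12 in sham and -1.76 at 28 dpi for microglia, and this turned with the reference: against endothelial cells alone, without the B cells that are rich in Cnp, it was 0.66 in sham and 0.47 at 28 dpi.

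With injury, Mag and Cnp were lower in macrophages and Mbp was not. In microglia at 7 dpi over sham the log2 ratio was -1.12 (-1.68 to -0.55) for Mag, -0.86 (-1.20 to -0.52) for Cnp and -0.05 (-0.49 to 0.40) for Mbp. The median of all genes was -0.54, and 21.5% of 6623 genes were at least 2-fold lower, as was 1 of 3 members (Mag). With TMM scaling, which re-centres the libraries, Mag was at -0.49, Cnp at -0.23 and Mbp at 0.58. At 28 dpi over sham Mag was at -0.95 (-1.48 to -0.41) and Cnp at -1.08 (-1.41 to -0.74), where 12.5% of 7162 genes and 1 of 3 members (Cnp) were at least 2-fold lower and the median gene was at -0.44.

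In MDMs the same genes moved apart. Mbp was higher after injury, with a log2 ratio of 0.84 (0.31–1.43) at 7 dpi and 0.61 (0.07–1.21) at 28 dpi over sham. Mag was at -1.37 (-2.09 to -0.58) and -0.88 (-1.60 to -0.09), and Cnp at -0.67 (-1.09 to -0.23) and -0.88 (-1.31 to -0.42). At 7 dpi 11% of 8303 genes were at least 2-fold lower, and 1 of 3 members (Mag), and at 28 dpi 5.63% of 7714 genes and none of the 3, with the median gene at -0.25 in both. In thinned cells the Mbp ratio was 0.29 at 7 dpi and 0.03 at 28 dpi and the Cnp ratio -1.34 at 7 dpi, so the size of the Mbp difference depended on the thinning.

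In MDMs the members differed between treatments by less than the counting error. The log2 ratio of PLX5622 over vehicle was -0.17 (-0.59 to 0.22) for Mbp at 7 dpi and -0.43 (-1.01 to 0.11) at 28 dpi, -0.18 (-1.43 to 0.85) and 0.58 (-0.34 to 1.39) for Mag, and -0.47 (-1.06 to 0.07) and -0.60 (-1.40 to 0.11) for Cnp. These intervals include 0 and do not show that the treatments were alike. In microglia with PLX5622, 29, 61 and 126 cells were left, and Cnp at 7 dpi rested on 3 UMIs.

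The mixture of the structural members also differed between clusters. Of the UMIs of Mbp, Mog, Mag, Cnp and Mobp together, the lineage cluster (385 UMIs) had 85.5% Cnp, 10.4% Mbp (7.53–13.9) and 3.12% Mag. MDMs (2374 UMIs) had 54.0% Mbp (52.0–56.0), 35.2% Cnp and 10.4% Mag, and microglia (1231 UMIs) 37.5% Mbp (34.8–40.3) and 17.1% Mag. With all libraries together, Mbp and Mag thus made up a larger part in the macrophage clusters than in the lineage cluster, beyond the counting error. Neutrophils had 82.2% Mbp, whereas B cells, with 85.8% Cnp and 12.9% Mbp, and ependymal cells, with 87.3% Cnp and 11.7% Mbp, had shares that overlapped those of the lineage cluster. The gap for Mbp was also seen within a library: at 7 dpi with vehicle Mbp was 7.17% (4.23–11.2) of these UMIs in the lineage cluster, 38.8% in microglia and 56.2% in MDMs. For Mag the shares in that library were 4.22% (2.04–7.62), 14.9% and 7.93% (6.52–9.53), and the intervals of the lineage cluster and MDMs overlapped. The source of the UMIs in immune cells was not tested.

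**Figure D5:**
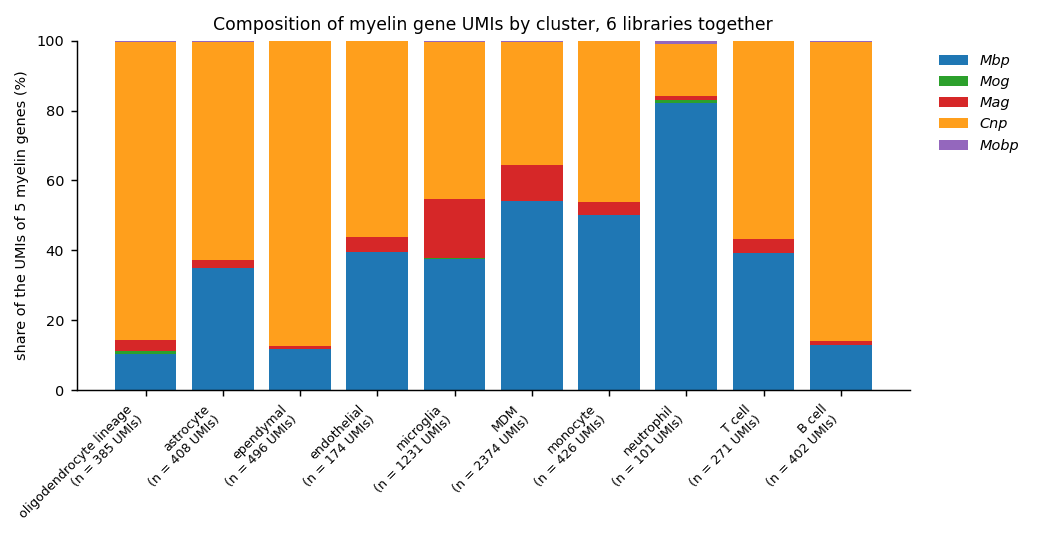
Share (%) of the UMIs of the 5 structural myelin genes that each gene contributed in 10 clusters, all libraries together, with the number of UMIs under each cluster name. Cnp makes up most of the oligodendrocyte lineage, ependymal and B cell bars, and Mbp the largest part of the MDM and neutrophil bars.

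Set beside the lineage cluster of the same vehicle libraries, Mbp in MDMs, at 20.4 to 36.7 CPM, compares with 12.8 to 51.9 CPM. The lineage values rest on 1, 17 and 4 Mbp UMIs in sham, at 7 dpi and at 28 dpi, too few to rank the clusters.

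Among genes of the same roles, from lists of known members, precursor genes were mostly led by the lineage cluster and mature myelin genes less often. Of 17 precursor genes, all in the table, 14 were highest in the lineage cluster, such as Cspg5 at 1711 CPM and Vcan at 1572, while Bcan was highest in astrocytes at 1761. Of 22 mature myelin genes, 20 were in the table and 9 were highest in the lineage cluster, Ugt8a among them. Others were led elsewhere, such as Mal in endothelial cells at 651 CPM and Trf in microglia at 863. In the lineage cluster the mature list summed to 1448 CPM in sham, 2551 at 7 dpi and 1180 at 28 dpi with vehicle, and to 1722 and 1059 at 7 and 28 dpi with PLX5622. The precursor list summed to 13919, 8372 and 9668 with vehicle and 8930 and 13238 with PLX5622. Cnp peaked in the same library as the mature list and Olig1 in the same as the precursor list, while the order of the other libraries differed between Cnp and the mature list. The mature list was not particular to the lineage cluster. In vehicle microglia it summed to 1205, 843 and 935 CPM in sham, at 7 dpi and at 28 dpi. In MDMs it was at 955, 585 and 1012 CPM, and in astrocytes at 1108, 996 and 978. At 28 dpi with PLX5622 astrocytes, at 1300 CPM, stood above the lineage cluster.

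The genes most like each member over 66 combinations of cluster and library were found by Pearson correlation of log2(CPM + 10). They are given as a description, since the points share libraries and depth. Olig1 was closest to Cspg5 (0.98), Gria4 (0.98) and Gria2 (0.97), and Olig2 to Cspg5 (0.98), Gria4 (0.97) and Fzd9 (0.97). Sox10 was closest to Susd5 (0.97), Slc35f1 (0.97) and Tubb3 (0.96), and Gpr17 to 3110035E14Rik, Ugt8a and Tnr (0.99 each). The 4 regulators thus had near neighbours, several of them on the precursor list. Cnp was closest to Ralgps2 (0.77), Rabgap1l (0.72) and Tmem108 (0.72). Mbp was closest to Plekho2 (0.66), Sema4a (0.63) and Pstpip1 (0.60), and Mag to Klk8 (0.60), Slc16a7 (0.59) and Afp (0.56). No gene followed Mbp or Mag as closely as the neighbours of the regulators did, and Mog and Mobp had too few UMIs for the measure.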

How the data were processed

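Single cells of 6 pooled cord libraries were captured with 10x 3′ chemistry. The deposited values were whole-number UMI counts per gene and cell, made by the authors with Cell Ranger and Seurat on GRCm38, according to the submitters' processing notes. The deposited cell table gave the library and the cluster number (seurat_clusters) of each cell, both of which were used as they stood. Bulk samples of the series were not analysed here.

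Against the per-library matrices, the count table lacked 254 of 21270 barcodes, those under 200 genes, which held 1 Cnp and 2 Olig1 UMIs among the members. A gene found in fewer than 3 cells of a library was set to 0 in that library, so a 0 of Mog, Mobp, Sox10 or Gpr17 in a small library may be this filter. The upper limit on genes per cell that the methods state had not been applied in the table. Pairs of libraries shared 0 to 21 barcodes.

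UMIs were summed per cluster and library. CPM has the summed UMIs of the same cluster and library as its total, with exact Poisson 95% intervals. Log2 ratios carry exact conditional binomial intervals, and shares Clopper-Pearson intervals. Combinations of fewer than 20 cells are given as UMIs. A member was called where it was at least 2-fold higher or lower, beside the share of all genes that were so called among those with 100 or more UMIs over the pair of libraries. For shares of cells with a UMI, each cell was thinned to 1000 UMIs (seed 7), and shallower cells were left out. The scripts were tested on simulated data.

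The main ratios were set beside TMM factors (edgeR 4.0.16), DESeq2 1.42.0 size factors, equal cell weights, thinning, a filter of 500 genes per cell, totals without ribosomal protein genes and other reference clusters. Scrublet (scanpy 1.11.5), run per library, called 31 of 21016 cells (0.148%), too few for it to have worked, so doublets were not removed. Computation used R 4.3.3 and Python 3.11.15 with scipy 1.17.1, numpy 2.4.6 and pandas 2.3.3.

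The members and lists were chosen with earlier results of these data known. Named genes were the members, list members with the highest CPM, and the 3 genes most like each member. Shares were taken among the 5 structural members alone, a choice made after the data had been seen, and some comparison genes are not reported here. The ratios in astrocytes, the ratios without cells of at least 5 Mbp UMIs or without the cell with most UMIs of a gene, and shares among cells other than microglia and MDMs, were added after the data had been seen.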

Additional observations from a re-analysis of the deposited data

Results flagged for a closer look

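In the oligodendrocyte lineage cluster the PLX5622 over vehicle ratio of Cnp was -1.48 at 7 dpi and 1.05 at 28 dpi, a gap of 2.53 on the log2 scale. For Sox10 the ratios were -0.63 and 0.72, a gap of 1.35, and for Olig1 -0.29 and 0.72, a gap of 1.00. For Olig2 the ratio was -2.26 in sham, from 4 UMIs in 4 PLX5622 cells, and 0.79 at 28 dpi, a gap of 3.05. These results were picked out because the direction turned between time points, and the difference was not tested, since each point is 1 library. The matrix of the sham PLX5622 library held 6 Sox10 UMIs, all in 1 cell, that the count table lists at 0.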

How the results depend on the processing

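Of 1005 alternative values for 140 results, 890 stayed within the counting error, 109 moved beyond it and 6 turned. In microglia at 7 dpi over sham, Mag was at -0.49 with TMM factors and -0.48 with DESeq2 size factors, and Cnp at -0.23 and -0.22. In MDMs at 7 dpi over sham, thinning gave 0.29 for Mbp and -1.34 for Cnp. In the oligodendrocyte lineage cluster at 7 dpi over sham, Olig1 was at -0.55 with TMM factors, -0.55 with size factors, -0.23 with equal cell weights and -0.31 after thinning, and Olig2 at -0.66 with equal weights and -0.92 after thinning. Mbp in MDMs over the reference clusters was, in sham, 1.19 after thinning and 1.66 against endothelial cells alone. At 7 dpi it was -0.39 with equal weights, -0.60 after thinning, -0.37 against T and B cells alone and 0.49 against endothelial cells alone, and at 28 dpi -0.55 after thinning and 0.63 against endothelial cells alone. The turns were in Cnp against endothelial cells alone, at 0.66 in sham, 0.47 at 28 dpi and 0.81 at 28 dpi with PLX5622 for microglia and at 0.043 in sham and 0.061 at 28 dpi for MDMs with vehicle, and in Mbp of MDMs at 7 dpi with PLX5622, at -0.34 against T and B cells alone. The cause was not tested. Totals without ribosomal protein genes and leaving out the few called doublets moved none of these results beyond the counting error. No paired analysis was possible because each condition had 1 library, and no replicate could be left out for the same reason. Mog and Mobp, and Mbp and Mag in the lineage cluster, were limited by depth.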
